A study of Mus musculus with 8 samples.

Results

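The genes described here are 28 mouse genes of entry into S phase and of DNA replication. They were chosen by name, with earlier results of these data known. Origin licensing, DNA synthesis, E2F and cyclin E genes were looked up by symbol, and all 28 were found among the 54532 genes listed. All 28 also passed the filter on low counts that left 13981 genes for testing. The series sequenced messenger RNA in bulk from spleen CD4+ T cells of wild-type (WT) mice, the lymphocytes that help other immune cells. The cells were given Dimethyl succinate, a cell-permeable ester of the metabolite succinate, for 3 days in 4 libraries, or Vehicle in the other 4; all 8 carry the same WT genotype. The labels give no strain, age, sex, dose or culture conditions, and do not name the animal or culture behind each library. The p-values below therefore describe the scatter of these 8 libraries, which may be technical. The comparison addresses which transcripts of these lymphocytes the ester alters.

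Before a cell copies its DNA, the origin recognition complex, CDC6 and CDT1 load the ring-shaped MCM2-7 helicase onto origins, a step called licensing. At the start of S phase CDC45 and the GINS complex join the ring and activate it, and DNA polymerase alpha with its primase starts each new strand. Transcription of most of these genes is driven by E2F factors, which are released from the retinoblastoma protein when cyclin D and cyclin E kinases phosphorylate it. In T cells this programme is switched on when a resting cell is activated and starts to divide, so its transcript level in a bulk sample follows the share of cycling cells as well as the level in each cell. In these bulk libraries, fewer cycling cells and less RNA per cell cannot be told apart.

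Total counts per library were 14663698 to 16688854 under Dimethyl succinate and 13407295 to 15738869 under Vehicle, and the 28 genes held 0.230% to 0.257% of them under Dimethyl succinate and 0.239% to 0.255% under Vehicle. The 6 markers of CD4+ T cells together stood at 1700 to 1760 CPM (counts scaled to a common library total) under Dimethyl succinate and 1340 to 1770 CPM under Vehicle. The 2 markers of CD8+ T cells summed to 5.87 to 7.55 CPM under Dimethyl succinate and 5.35 to 5.97 CPM under Vehicle, and those of B cells, natural killer cells, myeloid, dendritic and erythroid cells to at most 12.9 CPM under Dimethyl succinate and 14.2 CPM under Vehicle, with Siglech at 0 in all libraries. The part of these other cells in the results was not tested. Vehicle replicate 4 stood apart: its mean correlation with the other libraries was 0.981, against 0.989 to 0.991 for the others, and mitochondrial genes took 0.252% of its counts, compared with 1.16% to 1.48% elsewhere. Of the 6 CD4+ T cell markers, it was the lowest of the 8 libraries for Cd4 (308 CPM), Cd3e (127 CPM), Cd3g (103 CPM), Trac (247 CPM) and Cd28 (351 CPM), and the highest for Cd3d (201 CPM). Results are therefore given with and without it.

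No replication gene passed the test of Dimethyl succinate against Vehicle. By edgeR's quasi-likelihood test with Benjamini-Hochberg adjustment over all genes tested, 0 of the 28 were called at an adjusted p of 0.05, where 0% of all genes were, and the smallest adjusted p of a member was 0.802. The differences leaned to lower levels under Dimethyl succinate. The fitted log2 fold change, Dimethyl succinate over Vehicle, was below 0 for 23 of the 28 genes, or 82.1%, against 50.4% of all genes tested, and its median was -0.048, against -0.0011 over all genes tested. This is a description only. The genes were chosen with earlier results known, and many of them stood high or low together in the same library. At an unadjusted edgeR p below 0.05 there were 3 members, E2f1, Slbp and Pola1, all lower under Dimethyl succinate. That is 10.7% of the members, where 2.83% of all genes were lower at that p and 5.76% differed in either direction. DESeq2 and limma-voom likewise called 0 members, where they called 4 and 0 of the 13981 genes. Each had 3 members at an unadjusted p below 0.05, where DESeq2 had 744 and limma-voom 841 genes in all. The libraries of the groups did not overlap for 1 member, Slbp, or 3.57%, close to the 4.82% of all genes.

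The intervals around these values were narrow. For 27 of the 28 genes the 95% interval lay within a 1.5-fold change in either direction, the exception being Fen1. Standard errors of the log2 fold change ran from 0.054 for Mcm2 to 0.24 for Fen1, which had only 27 to 70 counts per library. Without Vehicle replicate 4, 25 of 28 were below 0, against 50% of all genes, with a median of -0.072. Then 0 members were called, where 0.197% of all genes were, and 5 were lower at an unadjusted edgeR p below 0.05: Mcm4, Pcna, Prim1, Slbp and E2f1. The smallest adjusted p of a member was 0.34, and 4.12% of all genes were lower at that unadjusted p, or 8.54% in either direction. Groups without overlap were then found for 2 members, Pcna and Slbp, where 9.63% of all genes had none. Vehicle replicate 4 was the lowest of its group for 15 of the 28 genes and the highest for 8. A lower median without it is therefore partly built in and is no separate evidence of a change.

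**Figure D1:**
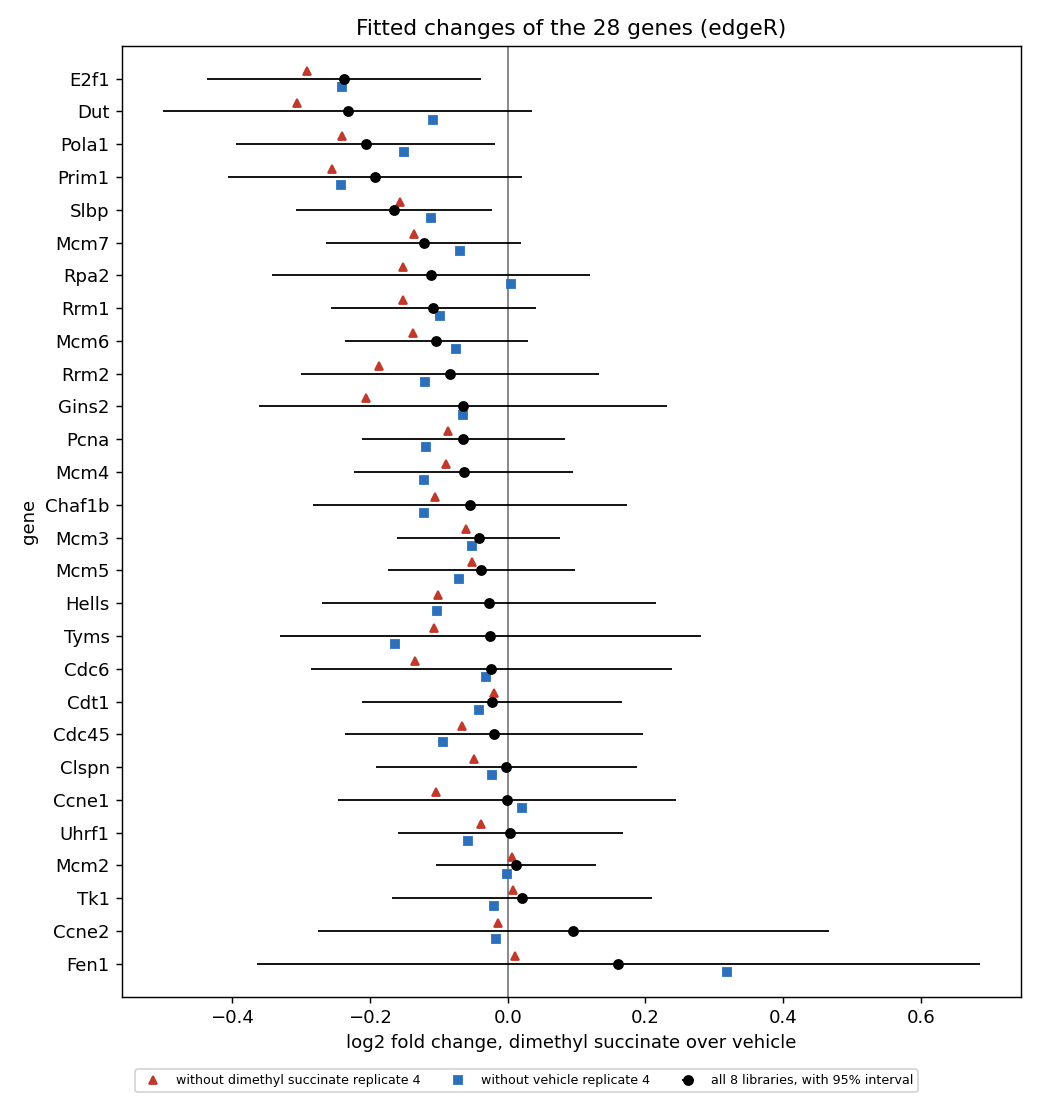
Log2 fold change of each of the 28 genes, Dimethyl succinate over Vehicle (x axis), with genes down the page (y axis); black points are the edgeR fit to all 8 libraries with 95% intervals, red triangles the fit without Dimethyl succinate replicate 4 and blue squares the fit without Vehicle replicate 4. Intervals of E2f1, Pola1 and Slbp lie below 0 and the other 25 include 0; most red triangles lie left of the black points.

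E2f1 and the cyclin E genes start the programme. E2f1, the transcription factor that activates most S phase genes, had 20.1, 18.5, 17.9 and 21.7 CPM in Dimethyl succinate replicates 1 to 4, against 24.1, 23.6, 21.5 and 23.0 CPM in Vehicle replicates 1 to 4. The groups overlapped through a single library, since Dimethyl succinate replicate 4 lay just above Vehicle replicate 3. Its log2 fold change of -0.24 ± 0.092 (SE) had a 95% interval from -0.44 to -0.039. The unadjusted edgeR p was 0.0225, the smallest among the members, and the adjusted p was 0.802. It was -0.24 without Vehicle replicate 4 and ran from -0.29 to -0.20 over the 8 fits that each left out a library. An exact two-sided permutation over the 70 splits gave 0.0571, where 0.0286 is the smallest it can give.

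Ccne1, which encodes cyclin E1, partner of the kinase CDK2, had 18.4, 17.7, 20.1 and 24.4 CPM under Dimethyl succinate and 18.1, 21.7, 19.7 and 21.1 CPM under Vehicle. The highest and the lowest of the 8 libraries were both Dimethyl succinate ones, and the log2 fold change was -0.0011 ± 0.114 (SE). Ccne2, which encodes cyclin E2, averaged 8.71 ± 1.68 CPM under Dimethyl succinate and 8.15 ± 1.55 CPM under Vehicle (SD, n = 4 each), and the log2 fold change was 0.095 ± 0.171 (SE), or -0.016 when Vehicle replicate 4 was left out.

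The 8 licensing genes lay close to their Vehicle levels, and 7 of them were below 0. For each of the 8 the 95% interval lay within 1.5-fold. Mcm7 had 159, 152, 157 and 163 CPM under Dimethyl succinate, against 158, 166, 172 and 190 CPM under Vehicle. Vehicle replicate 1 lay inside the range of the Dimethyl succinate libraries, and Vehicle replicate 4 was the highest of all. Mcm7 thus had a log2 fold change of -0.12 ± 0.065 (SE); leaving out Vehicle replicate 4 gave -0.068. Mcm6 had 212, 214, 221 and 238 CPM under Dimethyl succinate, against 225, 235, 239 and 252 CPM under Vehicle, a log2 fold change of -0.10 ± 0.061 (SE). Mcm3, the licensing gene with the highest level per length, had 208, 200, 198 and 213 CPM under Dimethyl succinate and 208, 213, 216 and 206 CPM under Vehicle, and the groups overlapped. Mcm2 had the smallest standard error of the members, at 196 ± 3.65 CPM under Dimethyl succinate and 194 ± 6.05 CPM under Vehicle (SD, n = 4 each), with a log2 fold change of 0.013 ± 0.054 (SE). The log2 fold changes of the other ring subunits were -0.064 for Mcm4 and -0.038 for Mcm5. Those of the loaders were -0.024 for Cdc6 and -0.023 for Cdt1. Mcm4 was -0.12 without Vehicle replicate 4, at an unadjusted edgeR p of 0.0253 and an adjusted p of 0.496, and -0.025 without Vehicle replicate 3.

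E2F factors bind words of the form TTTNNCGC in which each N is C or G, and the promoters of licensing genes are textbook E2F targets. These 4 words were searched on both strands in the RefSeq promoter windows (GRCm38.p6) of 300 bases, 250 before and 50 after a transcript start. Of the 25 members with a window, 10 held a match, or 40.0%, against 4.79% of the 9730 tested genes with a window and 2.6% of 27025 genes in all. Of the licensing genes Mcm3, Mcm5, Mcm6, Mcm7, Cdc6 and Cdt1 held a match, and outside them Pola1, Clspn, Uhrf1 and Hells did. Mcm4, Gins2 and Ccne2 were not in the table. Some RefSeq starts lie inside the deposited gene model, by 466 bases for E2f1, 539 for Mcm7, 350 for Cdc6, 325 for Dut and 992 for the Uhrf1 window with the match, so those windows may not cover the gene's first start. A match is a description of letters, not a measured site, and binding was not measured in these libraries. Mcm2 had a window and no match, which says only that these letters are not in it. The matches are shown because licensing genes held 6 of the 10 members with a match; genes known as E2F targets were among those chosen by name, so the share is not independent of the choice. Capitals mark the words, which read GCGNNAAA on the opposite strand and overlap each other in Mcm5 and Mcm6; each stretch is 30 bases, 5′ to 3′ on the gene's strand.
Mcm3, chr1:20820266-20820295, minus strand: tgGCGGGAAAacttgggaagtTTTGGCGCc
Mcm5, chr8:75109347-75109376, plus strand: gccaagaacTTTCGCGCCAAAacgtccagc
Mcm6, chr1:128359795-128359824, minus strand: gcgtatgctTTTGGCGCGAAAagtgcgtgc
Mcm6, chr1:128359734-128359763, minus strand: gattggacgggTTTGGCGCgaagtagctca
Mcm7, chr5:138172030-138172059, minus strand: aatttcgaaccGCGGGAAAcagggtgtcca
Mcm7, chr5:138171849-138171878, minus strand: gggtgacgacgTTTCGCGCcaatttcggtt
Cdc6, chr11:98908002-98908031, plus strand: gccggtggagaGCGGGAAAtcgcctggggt
Cdt1, chr8:122568035-122568064, plus strand: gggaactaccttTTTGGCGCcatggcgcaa

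**Figure D2:**
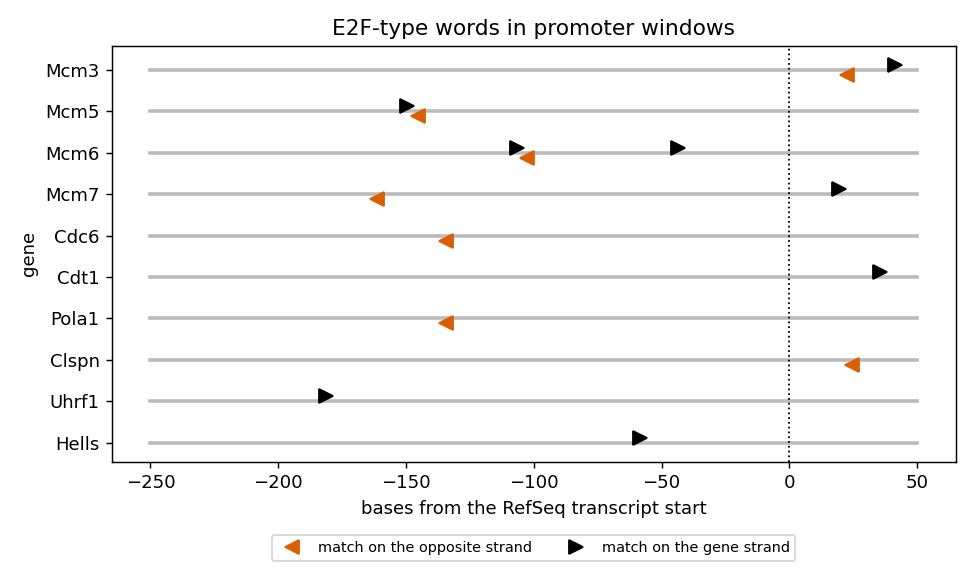
Position of E2F-type words in the RefSeq promoter windows of the 10 members with a match (y axis), in bases from the transcript start (x axis, dotted line at the start); grey lines are the windows, black arrowheads matches on the gene's strand and orange ones matches on the opposite strand. Mcm6 holds 3 matches and Mcm3, Mcm5 and Mcm7 hold 2 each.

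Origin firing was represented by Cdc45 and Gins2, both subunits of the active helicase. Cdc45 had 25.7, 25.4, 27.1 and 29.7 CPM under Dimethyl succinate and 30.4, 26.9, 29.1 and 23.0 CPM under Vehicle. The lowest library was Vehicle replicate 4, and the log2 fold change of -0.020 ± 0.100 (SE) was -0.094 without it. Gins2 averaged 15.3 ± 3.08 CPM under Dimethyl succinate and 16.01 ± 1.57 CPM under Vehicle (SD, n = 4 each), with a log2 fold change of -0.065 ± 0.137 (SE).

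Of the 6 fork genes, 5 were below 0, and the 3 lowest were subunits of the enzyme that starts DNA strands and of the single-strand binding protein. Pola1, the catalytic subunit of DNA polymerase alpha, had 33.5, 38.8, 37.0 and 40.3 CPM under Dimethyl succinate, against 41.8, 43.5, 39.3 and 48.0 CPM under Vehicle. The groups overlapped only between Dimethyl succinate replicate 4 and Vehicle replicate 3. Pola1 had a log2 fold change of -0.21 ± 0.087 (SE), with an unadjusted edgeR p of 0.0339 and an exact permutation p of 0.0571, and it was -0.15 without Vehicle replicate 4, at an unadjusted edgeR p of 0.0587. Its promoter window is shown whole, as that of the fork gene with the smallest p, with its E2F-type word in capitals.
Pola1, chrX:93632106-93632405, minus strand: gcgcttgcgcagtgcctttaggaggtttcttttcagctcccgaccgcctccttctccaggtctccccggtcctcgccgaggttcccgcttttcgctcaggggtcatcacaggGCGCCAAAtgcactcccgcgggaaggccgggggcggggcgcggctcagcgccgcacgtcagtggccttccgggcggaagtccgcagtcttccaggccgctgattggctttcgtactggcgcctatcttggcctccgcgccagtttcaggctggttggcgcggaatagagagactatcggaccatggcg

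Prim1, the catalytic subunit of the primase bound to polymerase alpha, had 37.4, 44.7, 45.2 and 50.2 CPM under Dimethyl succinate, against 53.6, 55.8, 47.9 and 45.4 CPM under Vehicle. Dimethyl succinate replicate 1 was the lowest, while replicate 4 lay above Vehicle replicates 3 and 4. For Prim1 the log2 fold change was -0.19 ± 0.099 (SE), at an unadjusted edgeR p of 0.0739. Without Vehicle replicate 4 it was -0.24, at an unadjusted edgeR p of 0.00713 and an adjusted p of 0.34. Without Dimethyl succinate replicate 1 it was -0.12, at an unadjusted edgeR p of 0.227.

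Pcna, the sliding clamp that holds polymerases on DNA, had 253, 264, 257 and 276 CPM under Dimethyl succinate and 281, 281, 293 and 243 CPM under Vehicle. Vehicle replicate 4 was the lowest library and the other 3 Vehicle libraries were the highest. For Pcna the log2 fold change was -0.064 ± 0.068 (SE), or -0.12 without Vehicle replicate 4, at an unadjusted edgeR p of 0.0182 and an adjusted p of 0.46. Without Vehicle replicate 3 it was -0.032. Rpa2, a subunit of the single-strand DNA binding protein, had -0.11 ± 0.107 (SE), and 0.0051 without Vehicle replicate 4. Clspn, which encodes claspin, an adaptor of the replication checkpoint, had -0.0018, and Fen1, the flap nuclease that trims Okazaki fragments, had 0.16 ± 0.242 (SE).

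Of the 5 genes of nucleotide supply, 4 were below 0. Dut, the dUTPase that keeps uracil out of DNA, had 63.1, 71.9, 78.1 and 86.5 CPM under Dimethyl succinate, against 73.1, 85.7, 83.5 and 109.7 CPM under Vehicle. The lowest library was a Dimethyl succinate one and the highest was Vehicle replicate 4, with the rest interleaved. The log2 fold change of -0.23 ± 0.123 (SE), at an unadjusted edgeR p of 0.0834, was -0.11 without Vehicle replicate 4. Rrm1, the large subunit of ribonucleotide reductase, had 129, 136, 153 and 157 CPM under Dimethyl succinate, against 155, 154, 153 and 158 CPM under Vehicle. Dimethyl succinate replicates 1 and 2 lay below all other libraries, and the log2 fold change was -0.11 ± 0.069 (SE), or -0.058 without Dimethyl succinate replicate 1. Rrm2, the small subunit made in S phase, had -0.083 ± 0.100 (SE), or -0.004 without that library. Tyms, thymidylate synthase, had -0.025 ± 0.141 (SE), or -0.16 without Vehicle replicate 4, where it stood at 20.0 CPM against 31.1 to 32.4 CPM in the other Vehicle libraries. Tk1, thymidine kinase 1, was the 1 gene of this group above 0, at 0.020 ± 0.087 (SE).

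Of the 4 genes of chromatin and histone mRNA, 3 were below 0. Slbp encodes the protein that binds the stem-loop of replication-dependent histone mRNAs. It had 81.8, 80.3, 82.1 and 79.9 CPM under Dimethyl succinate, against 90.6, 84.8, 87.4 and 100.5 CPM under Vehicle. The Dimethyl succinate libraries lay close together, and every Vehicle library lay above them. For Slbp the log2 fold change was -0.16 ± 0.066 (SE), with an unadjusted edgeR p of 0.0269 and an adjusted p of 0.802. Without Vehicle replicate 4 it was -0.11, at an unadjusted edgeR p of 0.0487. Uhrf1, which recruits the maintenance DNA methyltransferase, had 127, 122, 118 and 137 CPM under Dimethyl succinate and 133, 131, 129 and 109 CPM under Vehicle, with both extremes at replicate 4 of a group and a log2 fold change of 0.0041 ± 0.076 (SE). Chaf1b, a subunit of the histone chaperone CAF-1, had -0.054 ± 0.105 (SE), and Hells, a chromatin remodeller needed for DNA methylation, had -0.026 ± 0.112 (SE).

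The Dimethyl succinate libraries did not all lie on 1 side of the Vehicle libraries. The mean log2 CPM deviation of the 28 genes from their means over all libraries was -0.114, -0.092, -0.041 and 0.126 in Dimethyl succinate replicates 1 to 4. It was 0.033, 0.061, 0.037 and -0.0093 in Vehicle replicates 1 to 4. With this TMM scaling, replicates 1 to 3 under Dimethyl succinate thus lay below every Vehicle library, and replicate 4 lay above them all. With raw library totals the order changed: Vehicle replicate 4 stood at -0.0471, below Dimethyl succinate replicate 3 at -0.0243. Dimethyl succinate replicate 4 was the highest of its group for 24 of the 28 genes and the highest of all 8 libraries for 10, while Dimethyl succinate replicate 1 was the lowest of all for 9. Vehicle replicate 4 was the lowest of all for 8 and the highest of all for 7, the highest including Dut, Rpa2, Pola1 and Slbp and the lowest including Tyms, Ccne2 and Uhrf1.

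Leaving out Dimethyl succinate replicate 4 moved the median of the members to -0.105, against -0.00099 over all genes, with 25 of 28 below 0, against 50.3% of all genes. The groups then did not overlap for 6 members, Mcm6, Pola1, Prim1, Rrm1, Slbp and E2f1, where 9.03% of all genes did not. At an unadjusted edgeR p below 0.05 there were 4, all lower: Pola1, Prim1, Dut and E2f1, where 2.46% of all genes were lower. Still 0 members were called, where 0% of all genes were, and the smallest adjusted p by edgeR was 0.831. That library was the highest of its group for 24 of the 28 genes. Lower values without it are therefore built in and are no separate evidence of a change. Leaving out Dimethyl succinate replicate 1 or 2 instead left 17 or 16 of 28 below 0.

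**Figure D3:**
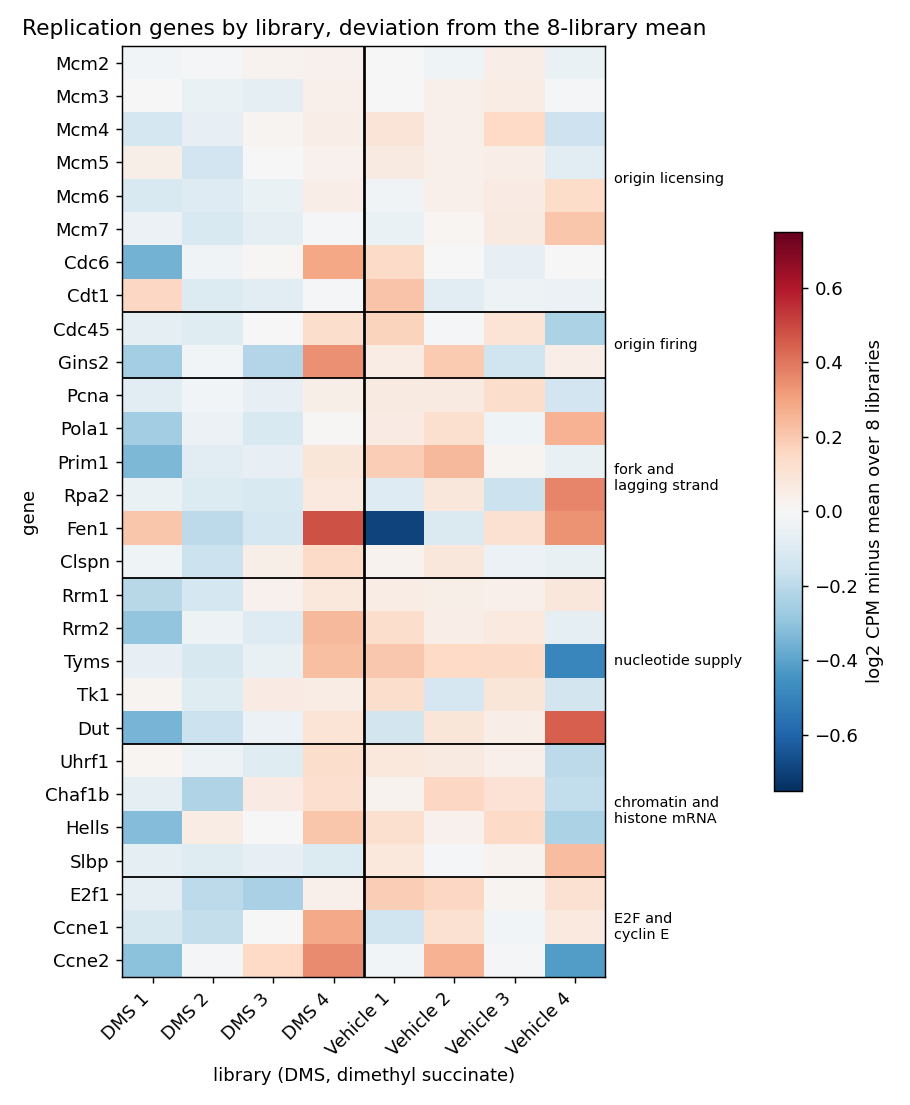
Log2 CPM of each gene (y axis, grouped by role) in each library (x axis, the 4 Dimethyl succinate libraries left of the 4 Vehicle libraries), shown as the deviation from the gene's mean over 8 libraries; red is higher and blue lower. Dimethyl succinate replicate 4 is the reddest column of its group, being highest of its group for 24 genes, and Vehicle replicate 4 departs both ways, with Dut high and Tyms low.

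The spread within a group depended on Vehicle replicate 4. The median coefficient of variation of the 28 genes was 8.56% under Dimethyl succinate and 8.64% under Vehicle, and 4.44% under Vehicle without replicate 4. With all libraries 14 of 28 genes varied more under Dimethyl succinate, and 21 of 28 did without that library. That omission trimmed the Vehicle group only, while Dimethyl succinate replicate 4 was kept. The spread under Dimethyl succinate without its replicate 4 was not computed, so the count does not show a wider spread under Dimethyl succinate. By the ratio of the coefficients in the groups Rrm1 and Slbp were the extremes. Rrm1 varied by 9.31% under Dimethyl succinate and 1.38% under Vehicle, and Slbp by 1.29% under Dimethyl succinate and 7.55% under Vehicle, or 3.30% under Vehicle without replicate 4.

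Per length, Pcna was the most abundant of the members and Fen1 the least. The authors' deposited FPKM values scale counts by gene length and by a library size that differs from the plain total of counts. In them Pcna stood at 108.5 ± 4.14 under Dimethyl succinate and 113.9 ± 8.90 under Vehicle (SD, n = 4 each), above 97.3% of the genes tested. It was above every other member in every library. The MCM ring came next, with Mcm3 at 54.2 ± 1.79 FPKM under Dimethyl succinate and 55.96 ± 1.16 FPKM under Vehicle, followed by Mcm4, Mcm6 and Mcm5, whose ranges over the 8 libraries overlapped from each to the next. Mcm7 was lower, at 35.4 ± 1.01 FPKM under Dimethyl succinate and 38.6 ± 3.17 under Vehicle, and Mcm2 was the lowest of the ring in all 8 libraries, at 27.9 ± 0.509 FPKM under Dimethyl succinate and 27.8 ± 0.841 FPKM under Vehicle. The ratio of the highest to the lowest ring subunit was 1.92 to 2.01 under Dimethyl succinate and 2.03 to 2.08 under Vehicle. This order depends on the listed gene length, which covers all annotated exons and was 6956 bases for Mcm2 and 4426 for Mcm7. In mean CPM Mcm2 lay above Mcm7, at 196 against 158 under Dimethyl succinate and 194 against 172 under Vehicle. Dut and Uhrf1 had mean levels between those of Mcm7 and Mcm2. Rrm2 stood at 23.2 ± 3.65 FPKM under Dimethyl succinate and 24.7 ± 1.35 under Vehicle, E2f1 at 6.15 ± 0.537 FPKM under Dimethyl succinate and 7.27 ± 0.352 under Vehicle, and Pola1 at 4.21 ± 0.332 FPKM under Dimethyl succinate and 4.88 ± 0.428 under Vehicle. In the order of mean levels, 4 neighbouring pairs were separated in all libraries: Pcna from Mcm3, Mcm5 from Mcm7, Tk1 from Chaf1b, and Clspn from Ccne2. The other neighbours overlapped.

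**Figure D4:**
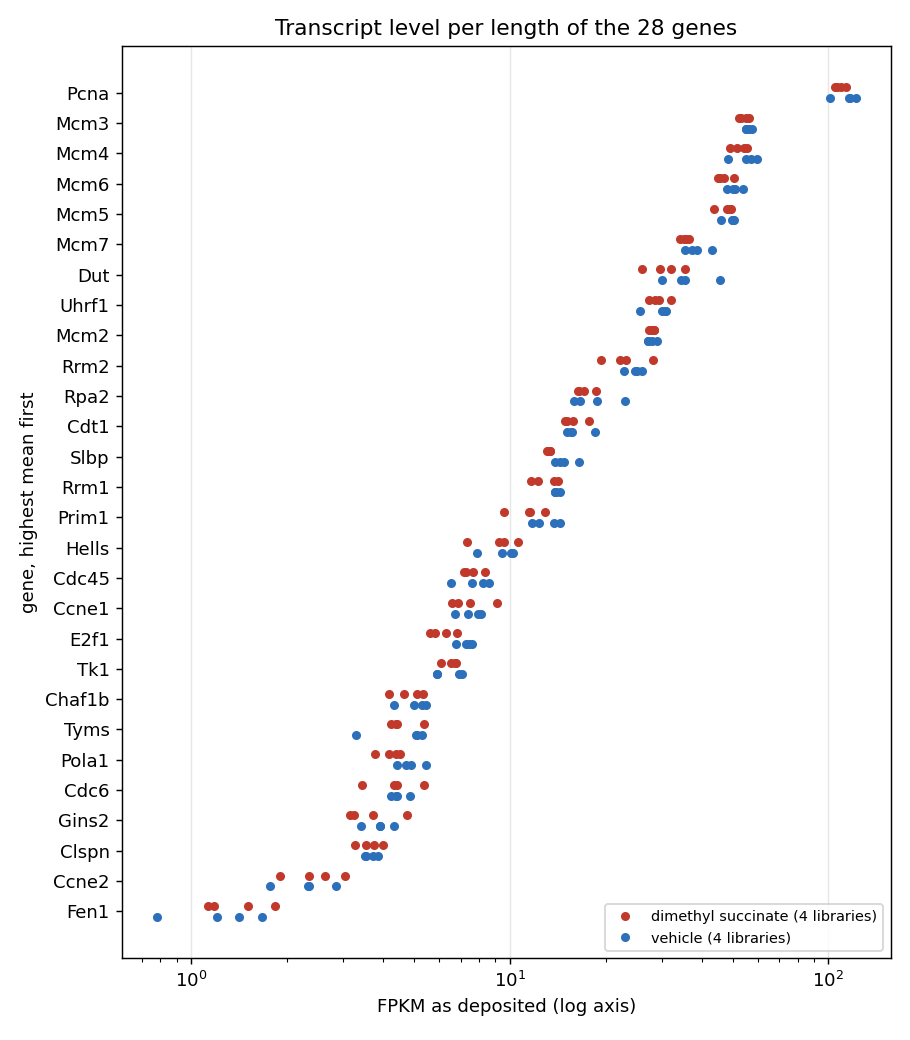
Deposited FPKM of the 28 genes (x axis, log scale) in order of mean level (y axis); red points are the 4 Dimethyl succinate libraries and blue points the 4 Vehicle libraries of each gene. Pcna, at 101 to 122 FPKM, stands apart at the top, and the groups lie over each other for nearly all genes.

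Some levels are uncertain because reads can be shared. In GENCODE M21, an annotation of GRCm38 whose exon lengths equalled the listed lengths of all 28 genes, 84.2% of the exon bases of Fen1 lie under Gm10143 and Tmem258 on the opposite strand, and 67.3% of those of Gins2 lie under Gse1. Ccne2 shares 17.4% with Ints8 and Mcm7 12.6% with Cops6, Ap4m1 and the microRNA genes Mir25 and Mir93 it hosts. The use of strand in counting was not given in the sources used here, and the part of that overlap in the low level of Fen1 was not tested. Pcna shares 19.1% of its 50-base windows with transcripts of other genes, mainly Pcna-ps2, but its 2 listed pseudogenes held 238 counts in all, against 32453 for Pcna. Mcm7 shares 23.3% of its windows, mainly with Gm5487, which held 0 counts. Uhrf1 shares 15.4%, mainly with Gm5648, which held 42 counts against 15203 for Uhrf1.

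Replication genes outside the 28 also lay mostly below 0, with no call. Of 49 further genes of origins, polymerases, clamp loading and fork maintenance, 35 were below 0, with a median of -0.065. Of these 0 were called by edgeR, DESeq2 or limma-voom, which called 0, 4 and 0 of all genes tested. At an unadjusted edgeR p below 0.05 there was 1 of the 49, lower under Dimethyl succinate, where 2.83% of all genes were lower. That gene was Prim2, the regulatory subunit of the primase and partner of Prim1. It had 21.1, 22.3, 20.4 and 23.6 CPM under Dimethyl succinate, against 28.9, 26.8, 27.0 and 23.2 CPM under Vehicle. Vehicle replicate 4 lay among the Dimethyl succinate libraries and the other Vehicle libraries lay above them. Prim2 had a log2 fold change of -0.28 ± 0.093 (SE), at an unadjusted edgeR p of 0.0104. Without Vehicle replicate 4 its log2 fold change was -0.34, at an unadjusted edgeR p of 0.000483. The log2 fold change was -0.20 for Gins4, a GINS subunit (-0.13 without Vehicle replicate 4), -0.14 for Lig1, the ligase that joins Okazaki fragments, and -0.17 for Dbf4, the activator of the kinase CDC7. Without Vehicle replicate 4, 41 of the 49 were below 0, with a median of -0.089. In that fit 0 were called, where 0.197% of all genes were. At an unadjusted edgeR p below 0.05 there were then 4, all lower, where 4.12% of all genes were lower. The mean deviation of the 49 genes in Vehicle replicate 4 was -0.0459, the lowest of its group. Lower values without that library are thus partly built in here as well.

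The regulators upstream of the programme and the genes of mitosis were counted in the same way. Of 26 tested G1/S regulators, including Skp2 and genes of the E2F, retinoblastoma, cyclin D and CDK inhibitor families, 13 were below 0, with a median of -0.00034. Without Vehicle replicate 4 it was 18 of 27, with a median of -0.035. With all 8 libraries 0 were called by edgeR, where 0% of all genes were. None had an unadjusted edgeR p below 0.05, where 5.76% of all genes had one in either direction. Among so few genes a count of 0 does not show that they were unchanged. Cdkn1a, the CDK inhibitor p21, averaged 528 ± 25.4 CPM under Dimethyl succinate and 479 ± 42.1 CPM under Vehicle (SD, n = 4 each). Its log2 fold change of 0.14 ± 0.073 (SE) became 0.20 when Vehicle replicate 4 was left out, at an unadjusted edgeR p of 0.000281. In that fit 0 of the 27 were called, where 0.197% of all genes were. Cdkn1a was the 1 with an unadjusted p below 0.05, where 8.54% of all genes were in either direction. Cdkn2d, another CDK inhibitor, had -0.18, or -0.087 without Vehicle replicate 4. Skp2, a ubiquitin ligase subunit that marks p27 for degradation, had 0.21, or 0.11 without that library, and Ccnd3, cyclin D3, had 0.12. Of 28 G2/M genes 12 were below 0, with a median of 0.033, or 16 of 28 and -0.041 without Vehicle replicate 4. That count was 6 of 28 without Dimethyl succinate replicate 1 and 8 of 28 without Vehicle replicate 1, where 17 and 18 of the 28 replication genes were below 0. None of the G2/M genes was called by edgeR, where 0% of all genes were. At an unadjusted p below 0.05, 1 was lower, where 2.83% of all genes were. It was Top2a, the topoisomerase that untangles chromosomes, with -0.17 ± 0.077 (SE), at an unadjusted edgeR p of 0.0491. Without Vehicle replicate 4, 0 were called and 2 were lower at that threshold, where 4.12% of all genes were. These were Top2a and Nuf2, at unadjusted edgeR p of 0.0167 and 0.0214. Tpx2, a spindle assembly factor, had 0.15, or 0.095 without Vehicle replicate 4, and Nuf2 and Ndc80, subunits of the kinetochore complex that binds microtubules, had -0.21 and -0.23. The difference between these lists was not tested. The G2/M mean in Dimethyl succinate replicates 1 to 4 was -0.096, -0.047, 0.028 and 0.211, and in Vehicle replicates 1 to 4 it was 0.079, 0.135, 0.0026 and -0.313. Dimethyl succinate replicate 4 was again the highest library, and Vehicle replicate 4 was the lowest.

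**Figure D5:**
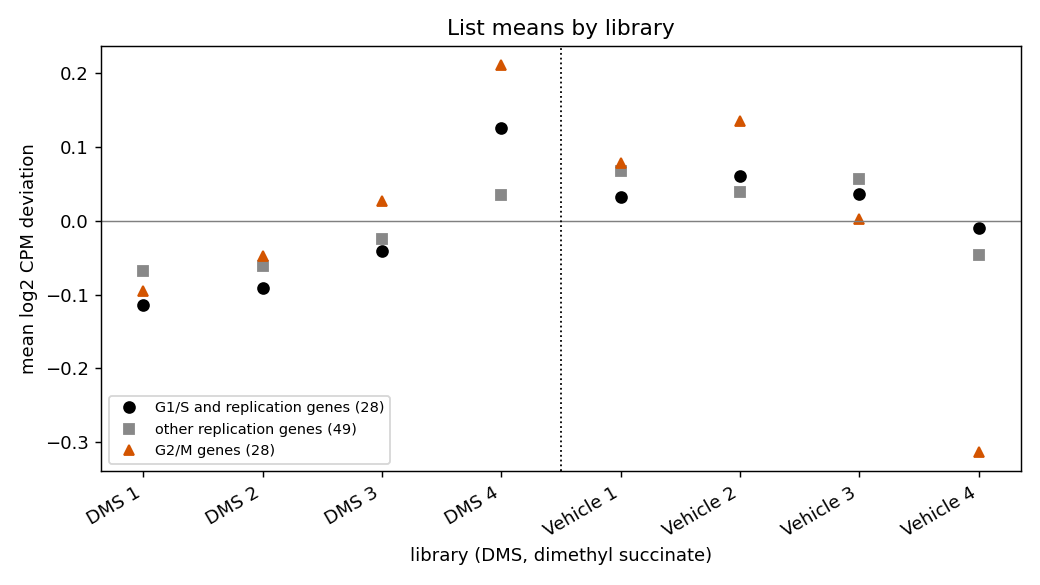
Mean log2 CPM deviation (y axis) of 3 gene lists in each library (x axis, the 4 Dimethyl succinate libraries left of the 4 Vehicle libraries); black circles are the 28 replication genes, grey squares 49 other replication genes and orange triangles 28 G2/M genes. The 28 replication genes are highest in Dimethyl succinate replicate 4 (0.126) and lowest in Dimethyl succinate replicate 1 (-0.114), and the G2/M genes are lowest in Vehicle replicate 4 (-0.313).

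The authors' deposited table of their own comparison gave 0 of the 28 genes an adjusted p below 0.05, with a lowest value of 0.782, where 4 of the 24973 genes with a value were below 0.05. The authors' deposited table gave a p below 0.05 to 3 members, E2f1, Slbp and Pola1, and 24 members had a log2 fold change below 0. The matching shares over all genes of that table were not computed.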

How the data were processed

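Messenger RNA libraries of 8 samples were analysed, 4 per treatment, grouped by the labels' treatment field. The submitters' processing notes name HISAT2 2.0.5; the sources used here do not give the counting tool, the build or the use of strand. The authors deposited raw counts per gene, per the file headers, and FPKM values computed by the authors. The deposited table also held the authors' group means (a normalised signal), log2 fold changes, p-values and gene lengths in bases (deposited as an other column of annotation). Start or end of 99.17% of 54495 matched genes equalled GENCODE M21, so coordinates are read as GRCm38.

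Counts were tested with edgeR 4.0.16 in R 4.3.3: filterByExpr, TMM scaling, robust quasi-likelihood F test, 4 against 4 with no covariate, Benjamini-Hochberg adjustment over 13981 genes, two-sided, threshold 0.05. Standard errors came from the F statistic. CPM used TMM-scaled totals, except for markers (raw totals); log2 CPM used a prior count of 2. The script was tested on simulated data. Replicates differed beyond counting noise (lowest chi-square per gene 2.11 over 28 pairs, where counting noise alone gives a value near unity). Members and lists were chosen with earlier results of these data known. Named with values per library were the 8 members with the smallest p and the member of highest FPKM in each of 6 roles, plus up to 4 genes of each further list. Alternatives were DESeq2 1.42.0, limma-voom (limma 3.58.1), other scaling, other filters, a replicate block and each library left out.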

Additional observations from a re-analysis of the deposited data

Results flagged for a closer look

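Among 80 sets of 4 libraries, 7 held a library far from the other 3, where chance marks about 1 in 20. Tyms was lowest in Vehicle replicate 4, at 20.04 CPM, and stood apart in Dimethyl succinate replicate 4 as well, as the highest at 32.97 CPM. Uhrf1 was lowest in Vehicle replicate 4, at 109.2 CPM, and Cdt1 highest in Vehicle replicate 1, at 58.58 CPM. The mean log2 CPM deviation of the 6 fork genes was highest in Dimethyl succinate replicate 4, at 0.1387, and that of the 4 chromatin genes was lowest in Vehicle replicate 4, at -0.0977. The mitochondrial share of counts was lowest in Vehicle replicate 4, at 0.2515%.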

How the results depend on the processing

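Under every alternative 0 of the 28 genes were called. Over all genes tested, DESeq2 called 4, edgeR with no filter on low counts called 6 and leaving out each library in turn called 0 to 28, the highest without Vehicle replicate 4. The causes were not tested. Same-numbered libraries did not deviate together (correlations of -0.014, 0.011, 0.056 and 0.13), so the numbers were not taken as pairs; 1 Dimethyl succinate library correlated best with its own number. A replicate block called 1 gene in all and 0 members, with 4 members at an unadjusted p below 0.05 by edgeR, where 987 genes in all were. Leaving out each library gave 1 to 5 members at an unadjusted p below 0.05, where 4.14% to 8.54% of all genes were, and 1 to 6 members whose groups did not overlap, where 7.08% to 9.63% of all genes did not. It left 16 to 25 below 0 and a median of -0.105 to -0.0314.

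Of 420 recomputed log2 fold changes 42 changed sign, in 16 of the 28 genes; the other 12 (Dut, E2f1, Mcm3, Mcm4, Mcm6, Mcm7, Pcna, Pola1, Prim1, Rrm1, Rrm2 and Slbp) kept their sign in each, though Rrm2 came as near to 0 as -0.004 and Mcm4 as -0.0251. Ccne1 was 0.0142 with raw totals, 0.0015 with no filter and 3e-04 with a filter at 1 CPM in 4 libraries, and Clspn was 0.0127 with raw totals and 5e-04 with no filter. Leaving out each library gave ranges that crossed 0: -0.1044 to 0.0577 for Ccne1, -0.0163 to 0.2114 for Ccne2, -0.0936 to 0.036 for Cdc45, -0.134 to 0.0784 for Cdc6, -0.0775 to 0.0508 for Cdt1, -0.121 to 0.0088 for Chaf1b, -0.0494 to 0.0495 for Clspn and -0.0084 to 0.3184 for Fen1. The range was -0.2059 to 0.0079 for Gins2, -0.1018 to 0.0683 for Hells, -7e-04 to 0.0313 for Mcm2, -0.0699 to 0.0017 for Mcm5, -0.1804 to 0.0051 for Rpa2, -0.0202 to 0.0712 for Tk1, -0.1632 to 0.0395 for Tyms and -0.0568 to 0.0369 for Uhrf1. Fen1 had the fewest counts of the members, 27 to 70 per library.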
